A study of Mus musculus with 6 samples.

Results

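The 10 genes described here are adipogenic transcription factors and lipid handling genes, chosen by name: *Pparg*, *Cebpa*, *Cebpb*, *Cebpd*, *Lpl*, *Fabp4*, *Cd36*, *Plin2*, *Apoe* and *Angptl4*. Earlier results of these data were known when they were chosen, so their counts and median beside those of all genes are a description. All 10 were found by symbol among the 25140 genes of the deposited table, and all 10 were among the 14334 genes with enough counts to test. RNA-seq was done on primary cardiac fibroblasts of adult C57BL/6 mice at passage 1, grown in medium with 25 mM glucose and 10% FBS (the study's results call the cells MEFs, its methods and the labels cardiac fibroblasts). By the labels, the cells spent 16 h in 1% FBS and then 24 h in it with vehicle or with 10 ng/ml TGFβ, 3 libraries each. The study's methods, for all of its experiments, give 24 h in 1% FBS before treatment and not 16 h. TGFβ drives fibroblasts toward the myofibroblast state, and the comparison asks which transcripts change along that path. The columns of the deposited table name the group but no replicate, so the libraries are called a, b and c within each group, in column order. No label ties a library of one group to one of the other. Libraries with the same letter still deviated alike from their group means over the 14334 genes, with correlations of 0.37, 0.40 and 0.45 for a, b and c. For unlike letters they ran from -0.26 to -0.12. Deviations within a group cancel out, so positive values for like letters make those for unlike letters negative on average.

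Adipogenesis in culture is driven by a cascade in which C/EBPβ and C/EBPδ come early and induce PPARγ and C/EBPα, which then switch on the genes of the fat cell. PPARγ works as a heterodimer with a retinoid X receptor and responds to fatty acids. The lipid handling genes act along one route: lipoprotein lipase frees fatty acids from circulating triglyceride, ANGPTL4 inhibits it, CD36 takes fatty acids up, FABP4 carries them through the cytosol, perilipin 2 coats the droplets in which they are stored, and apolipoprotein E carries lipid out of cells and through the blood. Several of these genes are not restricted to fat cells: FABP4 and CD36 are also known from capillary endothelium, and CD36, LPL and APOE from macrophages.

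With TGFβ, 8 of the 10 genes fell, 1 rose and 1 did not pass the threshold. *Lpl* fell the most, to 0.193 times its vehicle level, followed by *Apoe* (0.362 times), *Cebpb* (0.48 times), *Cebpd* (0.503 times) and *Angptl4* (0.514 times). *Fabp4*, *Cd36* and *Pparg* fell to 0.558, 0.572 and 0.64 times. *Plin2* rose 1.55-fold, and *Cebpa* stayed within the spread between libraries. A gene was called where its p from the quasi-likelihood test of edgeR, adjusted by Benjamini-Hochberg over the 14334 genes, was under 0.05. SE is the standard error of a log2 fold change. Across all of those genes 40.7% were called, 20.1% lower and 20.5% higher with TGFβ, and the median log2 fold change was -0.00, against -0.90 for the 10 genes. In 9 of the 10 the groups did not overlap, as in 53.3% of all genes tested, and for each of these 9 an exact two-sided permutation test on CPM gave p = 0.1, the smallest that 3 libraries against 3 allow. In bulk RNA, fewer cells of a type and less RNA per cell cannot be told apart.

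**Figure D1:**
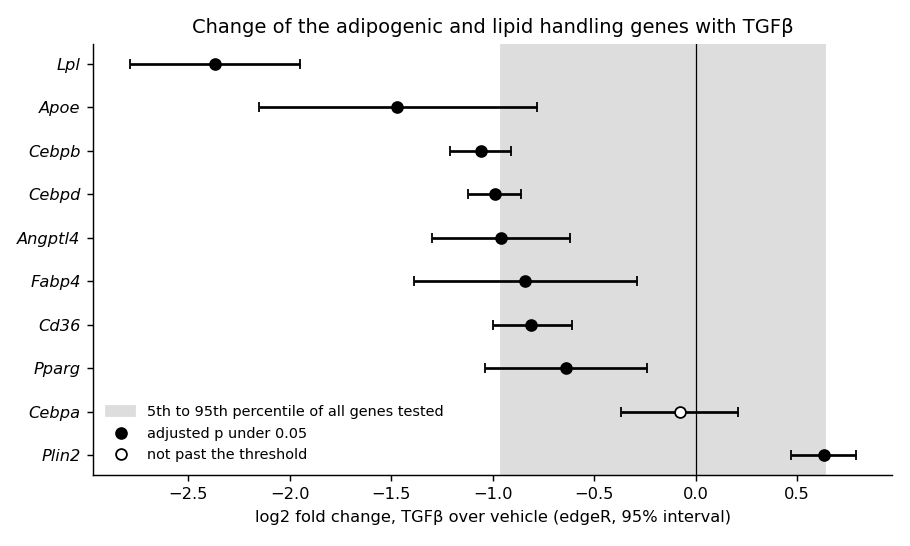
Log2 fold change of each of the 10 genes, TGFβ over vehicle, on the x axis, with its 95% interval from edgeR; the grey band spans the 5th to the 95th percentile of all genes tested (-0.96 to 0.64). *Lpl*, *Apoe*, *Cebpb* and *Cebpd* lie to the left of the band, *Plin2* is the only one to the right of 0, and the interval of *Cebpa* takes in 0.

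Upstream sequences are shown for 4 of the genes, since 2 pairs with related roles moved differently: *Cd36* fell while *Plin2* rose, and *Cebpb* fell while *Cebpa* did not pass the threshold. RefSeq start sites on GRCm38.p6 were at hand for 6 of the 10 genes, with 10 starts in all (3 each for *Pparg* and *Apoe*). The 250 bases upstream of a start were searched on both strands for AGGTCA (the core that nuclear receptors such as PPARγ bind), TTGCG (a C/EBP core), CCAAT (bound by NF-Y), TATAAA (the initiation motif near many starts), CAGAC (a SMAD box) and CACGTG (an E-box). Matches are in capitals, and AGGTCA on the reverse strand reads TGACCT. *Plin2* is shown at chr4:86670060-86670309 and *Cd36* at chr5:17835897-17836146, both on the minus strand, *Cebpb* at chr2:167688665-167688914 and *Cebpa* at chr7:35119043-35119292, both on the plus strand. All are written 5′ to 3′ toward the start.
Plin2: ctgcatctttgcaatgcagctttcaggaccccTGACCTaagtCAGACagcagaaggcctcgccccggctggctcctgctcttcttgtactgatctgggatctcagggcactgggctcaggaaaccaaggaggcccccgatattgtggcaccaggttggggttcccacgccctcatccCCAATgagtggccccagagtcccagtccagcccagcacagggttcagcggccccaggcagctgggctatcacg
Cd36: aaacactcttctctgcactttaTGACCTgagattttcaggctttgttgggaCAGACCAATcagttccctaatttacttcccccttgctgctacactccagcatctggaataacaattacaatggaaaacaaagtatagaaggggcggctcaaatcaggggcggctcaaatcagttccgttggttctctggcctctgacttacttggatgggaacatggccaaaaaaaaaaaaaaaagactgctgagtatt
Cebpb: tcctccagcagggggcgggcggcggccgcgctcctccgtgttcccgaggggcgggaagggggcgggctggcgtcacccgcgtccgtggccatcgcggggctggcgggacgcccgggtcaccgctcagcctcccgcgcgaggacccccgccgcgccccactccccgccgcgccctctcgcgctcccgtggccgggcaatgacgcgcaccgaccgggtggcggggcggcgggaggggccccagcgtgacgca
Cebpa: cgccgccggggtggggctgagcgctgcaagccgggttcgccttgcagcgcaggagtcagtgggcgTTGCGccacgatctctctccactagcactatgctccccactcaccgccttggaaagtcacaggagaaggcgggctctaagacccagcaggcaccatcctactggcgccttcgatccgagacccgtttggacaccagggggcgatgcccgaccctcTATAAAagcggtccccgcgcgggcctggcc

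The upstream windows of *Plin2* and *Cd36*, which moved in opposite directions, held the same set of letters. The *Plin2* start is at the 5′ end of the gene. That of *Cd36* lies inside the gene, whose 5′ end is at 17888801 and which has 6 annotated transcripts, and the counts are not split by start. Counted from the start, AGGTCA on the reverse strand begins at -218 in *Plin2* and at -228 in *Cd36*, CAGAC at -208 and -199, and CCAAT at -73 and -195, where in *Cd36* it shares a base with the SMAD box. In the 32851 RefSeq upstream windows of this length, the receptor half-site occurred in 14%, CAGAC in 42.2% and CCAAT in 33.8%. The *Cebpa* window held TTGCG at -185 and TATAAA at -30, found in 14.5% and 12.4% of all windows, and the *Cebpb* window held none of the 6 motifs. CACGTG, in 6.02% of all windows, was in none of the 10. Of the 3 *Pparg* starts, the window at chr6:115360894-115361143 held AGGTCA alone. The one at chr6:115362099-115362348 held AGGTCA together with CCAAT and TATAAA, and that at chr6:115421816-115422065 held CAGAC and CCAAT in a pair of places, at -144 and -22. All 3 of these starts lie inside *Pparg*, which begins at 115360951, so their windows lie partly or wholly within the gene. The gene counts do not tell transcripts from these starts apart. The *Apoe* windows held CAGAC at -135 before the start farthest upstream and 2 partly overlapping TATAAA matches, on opposite strands, before the middle start. The middle and last *Apoe* starts lie inside the gene, whose 5′ end is at 19699188. All motifs given here were found by letters alone. They are not measured sites.

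*Pparg*, the nuclear receptor at the centre of adipogenesis, was expressed at a low level. It maps to chromosome 6 (plus strand), 115360951 to 115490399 (ENSMUSG00000000440; GRCm38, GENCODE M21). Between 93 and 98 reads were counted with vehicle, and 43, 66 and 58 with TGFβ. In CPM, the count scaled to library size with TMM factors, the vehicle libraries a, b and c had 2.92, 3.30 and 3.12, and the TGFβ libraries 1.57, 2.36 and 2.03. The groups did not overlap, and the lowest value was in TGFβ library a. The log2 fold change was -0.64 (SE 0.17, 95% interval -1.04 to -0.24, edgeR adjusted p = 0.0193). Few reads were behind the call: counting error alone gives a coefficient of variation of 10.3% with vehicle and 13.4% with TGFβ, where 6.13% and 20% were observed. The edgeR adjusted p was 0.065 without vehicle library b and 0.0505 without TGFβ library a.

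*Cebpb* and *Cebpd*, the early C/EBP factors, fell by similar factors. *Cebpb*, on chromosome 2 (plus strand) at 167688915 to 167690418 (ENSMUSG00000056501), had 211, 205 and 215 CPM with vehicle and 96.2, 95.3 and 111 with TGFβ. Its log2 fold change was -1.06 (SE 0.07, edgeR adjusted p = 2.6e-05). *Cebpd*, on chromosome 16 (plus strand) at 15887286 to 15891031 (ENSMUSG00000071637), had 246, 217 and 220 CPM with vehicle and 114, 112 and 117 with TGFβ, a log2 fold change of -0.99 (SE 0.06, edgeR adjusted p = 1.74e-05). Both groups were tight in both genes, with a coefficient of variation between 2.26% and 9.0%, and the groups lay far apart beside that spread. Each overlaps a gene on the opposite strand, *Tmem189* with 312 bases of exon shared with *Cebpb* and *Spidr* with 562 shared with *Cebpd*. These neighbours held 21.8% and 13.4% as many counts, and whether the counting used strand is not stated.

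*Cebpa*, the late C/EBP factor, lies on chromosome 7 (plus strand) at 35119293 to 35121928 (ENSMUSG00000034957). It was measured at 12.1, 14.1 and 15.2 CPM with vehicle and at 11.5, 12.3 and 15.2 CPM with TGFβ. The groups overlapped almost fully. The log2 fold change was -0.08 (SE 0.12, edgeR adjusted p = 0.627), and the 95% interval of -0.37 to 0.21 does not reach the change of *Cebpb*.

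*Lpl*, which encodes lipoprotein lipase, had the largest fall of the 10. It lies on chromosome 8 (plus strand) at 68880491 to 68907448 (ENSMUSG00000015568). The vehicle libraries a, b and c had 330, 486 and 543 CPM and the TGFβ libraries 77.6, 97.5 and 87.2. Library a was the lowest of the vehicle group, and it still stood far above all TGFβ libraries. The log2 fold change was -2.37 (SE 0.18, 95% interval -2.79 to -1.95, edgeR adjusted p = 6.53e-05), and 0.858% of the genes tested had a larger change in size. Leaving out any 1 library gave values between -2.56 and -2.22.

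*Angptl4*, the secreted inhibitor of lipoprotein lipase and a known PPAR target, fell too, by a smaller fold. It had 41.4, 39.3 and 53.0 CPM with vehicle and 22.3, 19.4 and 27.0 with TGFβ. The c library was the highest of both groups, and the groups did not overlap. Its log2 fold change was -0.96 (SE 0.15, edgeR adjusted p = 0.00154; minus strand of chromosome 17, 33773750 to 33781830, ENSMUSG00000002289). Per kilobase of exon, there were 2.69, 4.17 and 3.46 *Lpl* reads for each *Angptl4* read with vehicle and 1.18, 1.70 and 1.09 with TGFβ. Every TGFβ library was below every vehicle library. By the longest transcript in place of all exons the ratios were larger, at 6.40, 9.92 and 8.23 with vehicle and 2.80, 4.04 and 2.60 with TGFβ. They are given as a description, with no test.

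*Cd36*, the fatty acid translocase, had 28.7, 31.7 and 33.4 CPM with vehicle and 16.0, 19.1 and 18.5 CPM with TGFβ. Its spread was small in both groups, and they did not overlap. Its log2 fold change was -0.81 (SE 0.08, edgeR adjusted p = 0.000275; minus strand of chromosome 5, 17781690 to 17888801, ENSMUSG00000002944).

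*Fabp4*, the cytosolic fatty acid carrier, fell with a wide spread between libraries. Its values were 36.4, 34.9 and 54.9 CPM with vehicle and 18.1, 20.9 and 31.4 CPM with TGFβ. Library c stood highest in both groups, and the highest TGFβ value came close to the lowest vehicle value. The log2 fold change was -0.84 (SE 0.24, 95% interval -1.39 to -0.29, edgeR adjusted p = 0.0237; minus strand of chromosome 3, 10204088 to 10208576, ENSMUSG00000062515). The call was lost without vehicle library c (adjusted p = 0.0587), TGFβ library a (0.0843) or TGFβ library b (0.0812), all from edgeR.

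*Plin2*, the perilipin that coats lipid droplets in most cell types, was the exception among the 10 in rising. It had 92.3, 93.5 and 80.6 CPM with vehicle and 138, 145 and 130 CPM with TGFβ. Every TGFβ library was above every vehicle library. The rise was 0.63 on the log2 scale (SE 0.07, 95% interval 0.47 to 0.79, edgeR adjusted p = 0.000327; minus strand of chromosome 4, 86648386 to 86670060, ENSMUSG00000028494).

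*Apoe*, which encodes the lipid carrier apolipoprotein E, fell by a large factor with a large spread. The values were 154, 165 and 292 CPM with vehicle and 63.9, 55.9 and 101 CPM with TGFβ. As in *Fabp4* and *Angptl4*, library c was the highest of each group, and no TGFβ library reached the lowest vehicle library. On the log2 scale the change was -1.47 (SE 0.30, 95% interval -2.15 to -0.78, edgeR adjusted p = 0.00582; minus strand of chromosome 7, 19696109 to 19699188, ENSMUSG00000002985). It ranged from -1.77 to -1.11 with each library left out in turn and was called in each of those fits.

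**Figure D2:**
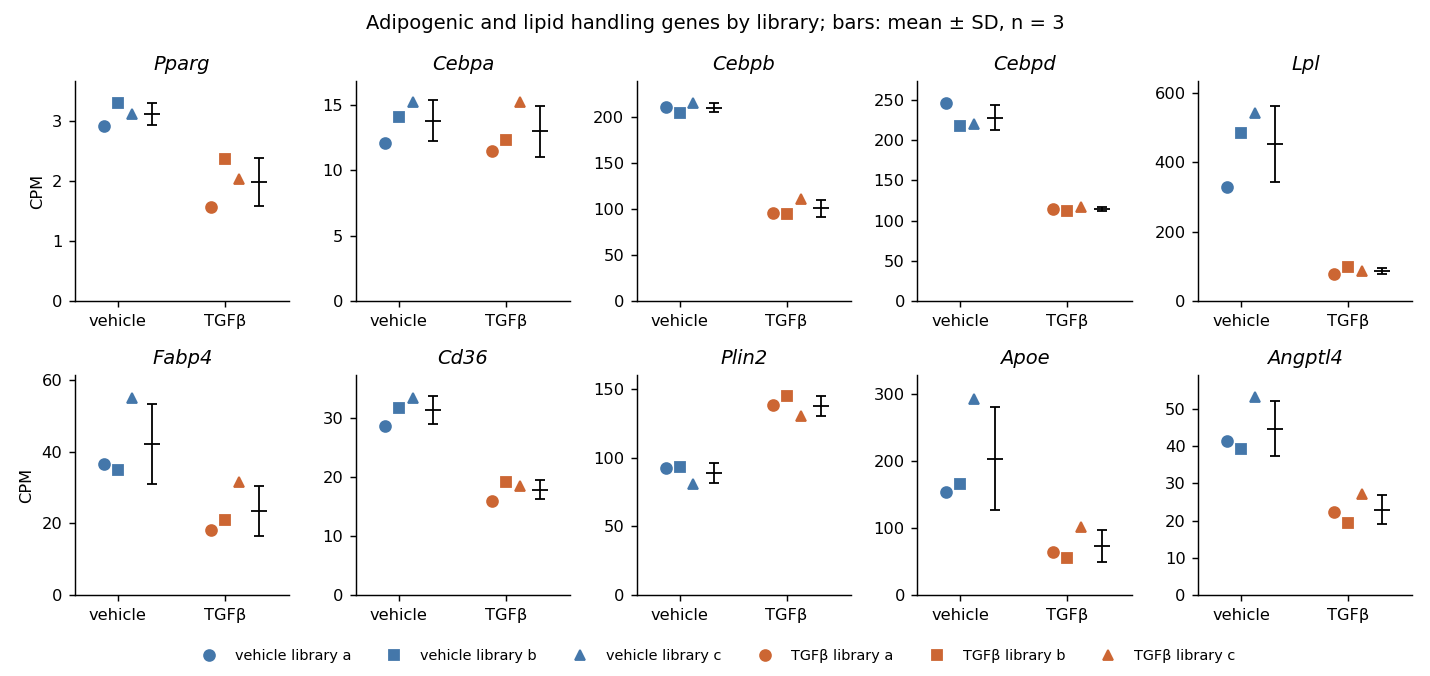
CPM of each of the 10 genes in every library on the y axis, with a panel per gene; circles, squares and triangles are the libraries a, b and c of each group and bars give the mean and SD (n = 3). *Cebpa* alone has overlapping groups, *Plin2* alone is higher with TGFβ, and in *Apoe*, *Fabp4* and *Angptl4* the triangle is the highest point of both groups.

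Libraries c of both groups also held more of some other cell types' transcripts. The summed level of 10 endothelial markers ran from 479 to 746 CPM with vehicle and from 434 to 604 with TGFβ, highest in library c each time, with 9 of the 10 markers highest there in both groups. The sum of 10 macrophage and leukocyte markers ran from 273 to 392 CPM with vehicle and from 235 to 348 with TGFβ, again with 9 of 10 highest in library c. Mesothelium markers were instead highest in library a of both groups. Their sum in libraries a, b and c was 90.5, 24.5 and 34.3 CPM with vehicle and 47.5, 16.0 and 19.2 with TGFβ. *Apoe* in library c was 1.83 times the mean of a and b with vehicle and 1.69 times with TGFβ, *Fabp4* 1.54 and 1.61 times, *Angptl4* 1.31 and 1.29 times, and *Gpihbp1*, the capillary anchor of lipoprotein lipase, 1.81 and 1.92 times. Of the 10 genes 5 were highest in library c of both groups (the others being *Cebpa* and *Cebpb*), as were 19.5% of all genes tested. Between groups, the endothelial sum with TGFβ was 0.86 times that with vehicle (two-sided exact permutation test, p = 0.6), with 0 of 10 markers called. The macrophage sum was 0.878 times (p = 0.5 by the same exact test), with 2 of 10 markers called. Both fell, *Mrc1* by a log2 fold change of -1.07 (edgeR adjusted p = 0.00107) and *Cd14* by one of -0.75 (edgeR adjusted p = 0.0436). The other 8 were not called. Set against the vehicle library of the same letter, both sums were lower in each TGFβ library. The mesothelium sum with TGFβ was 0.553 times that with vehicle (exact permutation test, p = 0.5), with none of its markers called. The cardiomyocyte sum was 0.727 times (p = 0.2 by the same exact test), also with none called. The sum of 6 pericyte and smooth muscle markers was 1.45 times (p = 0.2 by the same exact test), with 1 called higher. The part of any of these cell types in the results was not tested. With both libraries c left out, an alternative chosen after the data were seen, 7 of the 10 genes fell and 1 rose, with *Pparg* no longer called. The log2 fold change was -1.42 for *Apoe* (adjusted p = 4.57e-05), -0.88 for *Fabp4* (0.000354) and -0.96 for *Angptl4* (0.000228, all from edgeR), close to the values with all libraries.

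**Figure D3:**
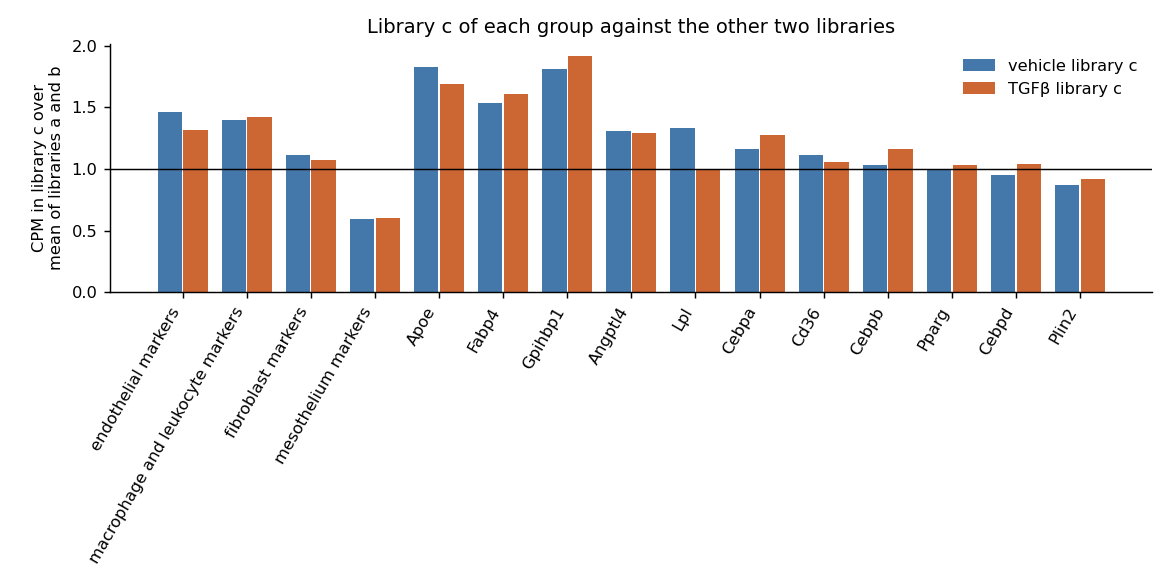
CPM in library c divided by the mean of libraries a and b of the same group on the y axis, for summed marker lists and single genes; blue bars are vehicle, orange bars TGFβ. *Apoe*, *Fabp4*, *Gpihbp1* and the endothelial and macrophage markers stand above 1 in both groups, while *Plin2* and the mesothelium markers stand below it.

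Most markers of mature fat cells were at or near 0 and a pair was expressed, while fibroblast markers were abundant. Of the 10 adipocyte markers searched, *Adipoq* had 0 counts in 5 libraries and 1 in the sixth, *Cfd* had 1 count in each group and *Plin1* at most 3 counts in a library, *Car3* had at most 6, and 4 (*Lep*, *Retn*, *Cidec* and *Pck1*) had no row in the table. *Plin4* (8.54 ± 1.07 CPM with vehicle) and *Lipe* (8.38 ± 0.962 CPM; SD, n = 3 each) were the 2 that could be tested, and the list summed to between 15.4 and 19.0 CPM with vehicle and between 10.0 and 10.8 with TGFβ. The 8 fibroblast markers summed to 34633, 36875 and 39766 CPM with vehicle and 38752, 40648 and 42293 with TGFβ (exact permutation test, p = 0.2). Most of the sum was *Col1a1* and *Col1a2* (19992 ± 1515 and 13656 ± 884 CPM with vehicle), which were not called. The other 6 of the 8 were lower past the threshold. As a check of the treatment 6 genes were taken, and 4 rose, among them *Ccn2* from 1102 ± 100 to 3085 ± 239 CPM (SD, n = 3 each, edgeR adjusted p = 2.03e-05). The libraries totalled between 27851677 and 31072338 counts.

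Set per kilobase of exon, the levels of the 10 genes with vehicle covered a wide range. *Cebpb* was the highest at 140 ± 3.27 CPM per kilobase (SD, n = 3), above 98.1% of the genes tested, and was followed by *Apoe* (95.2 ± 35.8), *Cebpd* (60.8 ± 4.19), *Lpl* (43.2 ± 10.5) and *Plin2* (25.3 ± 2.03). *Angptl4* (12.6 ± 2.08), *Fabp4* (9.37 ± 2.48), *Cd36* (8.70 ± 0.662), *Cebpa* (5.24 ± 0.593) and *Pparg* (1.05 ± 0.0646) came after, the last above 23.8% of genes. *Angptl4* and *Fabp4*, and *Fabp4* and *Cd36*, overlapped in their ranges, and the other neighbours did not. The order depends on the length used: by the longest transcript in place of all exons, *Lpl* was at 110.0 and *Apoe* at 145 CPM per kilobase.

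The summed level of *Cebpa*, *Cebpb*, *Cebpd* and *Cebpg* was lower in every TGFβ library, and the makeup of the sum differed. Per kilobase, the sum was 216 ± 5.35 CPM with vehicle and 114 ± 8.02 with TGFβ (SD, n = 3 each; two-sided exact permutation test, p = 0.1). *Ddit3*, also in the C/EBP list, was left out of the sum and the shares. It was at 58.9 ± 3.78 CPM with vehicle and 54.0 ± 3.43 with TGFβ (SD, n = 3 each; edgeR adjusted p = 0.161). *Cebpb* made up 64.7% ± 1.15 of the sum with vehicle and 58.6% ± 1.13 with TGFβ, and *Cebpd* 28.1% ± 1.46 and 26.8% ± 1.29. The share of *Cebpa* went from 2.43% ± 0.300 to 4.30% ± 0.351 (SD, n = 3 each; exact permutation p = 0.1) while its own level did not pass the test. *Cebpg*, a widely expressed partner of the other C/EBPs, rose by a log2 fold change of 0.18 (SE 0.05, edgeR adjusted p = 0.018), and its share was 4.79% and 10.3%. That call was lost without vehicle library b or c. *Cebpe* had no more than 1 count in any library and was not tested.

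Among the PPARs, *Ppard* was the main transcript, with 80.9% ± 1.46 of the family per kilobase with vehicle and 86.9% ± 1.87 with TGFβ. *Pparg* made up 13.7% ± 0.818 and 10.4% ± 1.68 (SD, n = 3 each; two-sided exact permutation test, p = 0.1). All 3 fell by edgeR: *Ppara*, the PPAR of fatty acid oxidation, by a log2 fold change of -1.21 (SE 0.22, adjusted p = 0.0035), and *Ppard* by one of -0.15 (SE 0.04, adjusted p = 0.0181). The value for *Ppara* rested on 45, 53 and 46 counts with vehicle and 15, 18 and 24 with TGFβ, fewer than for *Pparg*. *Rxra*, the partner of the PPARs, went from 115 ± 2.54 to 88.2 ± 5.09 CPM (SD, n = 3 each; log2 fold change -0.38, edgeR adjusted p = 0.000782). In the list of PPAR and RXR receptors 4 of the 5 tested fell and none rose, and 2 fell without TGFβ library a.

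*Plin2* made up a larger part of the perilipins with TGFβ. Its share of the perilipin family per kilobase was 48.0%, 48.3% and 46.1% in the vehicle libraries and 64.4%, 64.4% and 63.7% with TGFβ, 16.7 percentage points higher with no overlap (two-sided exact permutation test, p = 0.1). *Plin3*, a coat protein of nascent droplets, fell (log2 fold change -0.31, edgeR adjusted p = 0.00154) and *Plin4*, an adipocyte perilipin, fell from 8.54 ± 1.07 to 2.84 ± 0.196 CPM (log2 fold change -1.59, edgeR adjusted p = 7.46e-05; SD, n = 3 each). *Plin4* shares 17 bases of exon with *Hdgfl2*, a gene on the opposite strand whose counts were 823% of its own. In the list of droplet coat and biogenesis genes, 2 of the 6 tested rose and 3 fell, and 1 rose without vehicle library a or TGFβ library a.

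In the fatty acid binding family it was *Fabp5* that made up most reads, with 66.6% ± 8.77 of the family per kilobase with vehicle and 63.7% ± 10.0 with TGFβ. It fell too, from 107 ± 16.5 to 64.0 ± 10.3 CPM (SD, n = 3 each; log2 fold change -0.75, edgeR adjusted p = 0.00445). The share of *Fabp4* was 17.1%, 18.0% and 27.4% with vehicle and 14.7%, 15.9% and 25.0% with TGFβ, so the groups overlapped (two-sided exact permutation test, p = 0.5), with library c highest in both. In each TGFβ library it was lower than in the vehicle library of the same letter. The difference of -2.27 percentage points turned to 0.999 without vehicle library c.

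**Figure D4:**
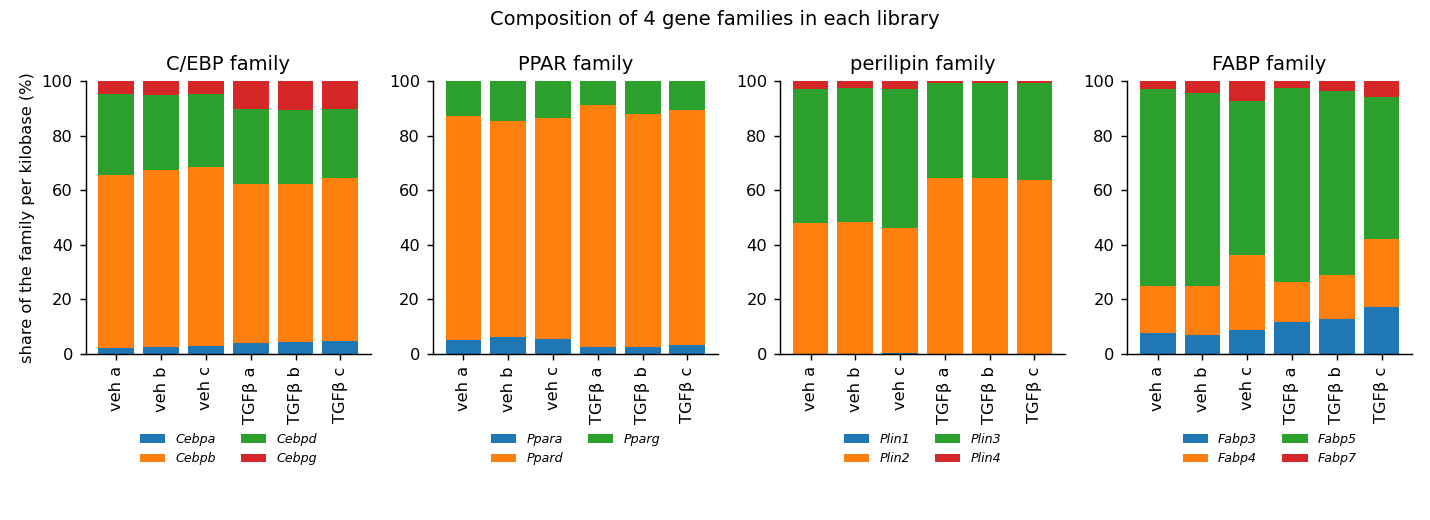
Share of each gene in its family (%), per kilobase of exon, on the y axis, in each of the 6 libraries on the x axis, for the C/EBP (without *Ddit3*), PPAR, perilipin and FABP families. The *Plin2* share is near 47.4% with vehicle and 64.1% with TGFβ, and the *Cebpa* and *Cebpg* shares are larger in all TGFβ libraries, while the *Fabp4* and *Fabp5* shares overlap between the groups.

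The other genes of these pathways moved both ways. Of 100 further genes tested in 13 lists, 21 rose, 37 fell and 42 did not pass the threshold, and their median log2 fold change was -0.15. Across all genes tested, 20.5% were called higher and 20.1% lower, the shares to set beside these counts and those of each list. The 21 that rose were near the share over all genes. Among other adipogenic regulators 8 of 14 fell and 1 rose, which was no longer called without vehicle library a or c or TGFβ library a or b. *Klf15*, a factor that promotes adipogenesis, went from 21.4 ± 1.35 to 8.08 ± 1.05 CPM (SD, n = 3 each; log2 fold change -1.40, edgeR adjusted p = 4.96e-05). Of the 10 inhibitors of adipogenesis tested, 2 rose and 2 fell. Of 3 adipokine genes tested 2 fell, a count that was 0 without vehicle library c or TGFβ library a.

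Around lipoprotein lipase, 2 of the 8 genes tested fell, *Lpl* and *Angptl4* themselves, and 1 rose (2 without TGFβ library c). The 1 was *Lipg*, which encodes endothelial lipase, from 4.77 ± 0.981 to 10.0 ± 0.256 CPM (SD, n = 3 each; log2 fold change 1.07, edgeR adjusted p = 0.0008). *Lmf1*, the chaperone that matures the lipase, was at 28.5 ± 0.127 and 30.6 ± 1.73 CPM (edgeR adjusted p = 0.156), and *Gpihbp1* at 6.38 ± 2.40 and 4.35 ± 1.76 CPM (edgeR adjusted p = 0.227; SD, n = 3 each). Neither passed the test. In the list of fatty acid uptake, binding and activation 6 of 13 fell and 3 rose.

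Storage and breakdown of triglyceride showed no common direction. In triglyceride synthesis 5 of 13 genes rose and 3 fell. *Gpat3*, an acyltransferase of its initial step, had the largest rise, from 3.19 ± 0.645 to 8.77 ± 0.702 CPM (SD, n = 3 each, log2 fold change 1.46, edgeR adjusted p = 0.000287). *Gpam*, of the same step and at a higher level, fell from 60.7 ± 1.27 to 32.2 ± 1.49 CPM (log2 fold change -0.91, edgeR adjusted p = 1.11e-05). *Gpat4*, also of that step, rose from 107 ± 0.37 to 123 ± 2.42 CPM (log2 fold change 0.2, edgeR adjusted p = 0.00329). In lipolysis 2 of the 6 genes tested fell and 1 rose, or 2 without TGFβ library b. Those that fell were *Lipa* (log2 fold change -0.39, edgeR adjusted p = 0.000271) and *G0s2*, counted by its own direction though it inhibits lipolysis. The 1 that rose was *Pnpla2*, which encodes adipose triglyceride lipase (log2 fold change 0.21, edgeR adjusted p = 0.00578). *G0s2*, an inhibitor of adipose triglyceride lipase, went from 60.2 ± 9.17 to 25.0 ± 4.19 CPM (SD, n = 3 each; log2 fold change -1.27, edgeR adjusted p = 0.00042).

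Beside *Apoe*, 4 of the other 9 genes for cholesterol efflux and apolipoproteins fell and 1 rose. The 1 that rose was *Abcg1*, from 6.42 ± 0.675 to 11.9 ± 2.26 CPM (SD, n = 3 each, log2 fold change 0.89, edgeR adjusted p = 0.00271). *Abca1*, the transporter that loads lipid onto apolipoproteins, went from 87.9 ± 1.66 to 33.5 ± 6.14 CPM (SD, n = 3 each; log2 fold change -1.39, edgeR adjusted p = 9.47e-05). *Pltp*, the phospholipid transfer protein, fell as well (log2 fold change -1.09, edgeR adjusted p = 2.62e-05), and shares 495 bases of exon with *Ctsa* on the opposite strand, whose counts were 698% of its own. Of 10 lipoprotein receptors 3 rose and 2 fell, with 1 falling without vehicle library b and 3 without TGFβ library c. *Lrp8*, a receptor for apolipoprotein E, and *Olr1*, a scavenger receptor for oxidised LDL, rose by log2 fold changes of 1.15 and 1.69 (adjusted p = 6.78e-05 and 0.0035 from edgeR), and *Sorl1*, a sorting receptor, had one of -1.66 (edgeR adjusted p = 4.61e-05). *Lrp1*, the most abundant of them, was at 2834 ± 76.2 and 3102 ± 444 CPM (SD, n = 3 each; edgeR adjusted p = 0.345).

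Of 14 known PPAR target genes, 13 were tested, of which 9 fell, 3 rose and 1 did not pass the threshold, with a median log2 fold change of -0.39. Of the 10 genes described above 5 are in this list and are counted in it. Log2 fold changes of 1 or more in size were called in 6.77% of all genes tested, and in this list only *Lpl* had one.

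**Figure D5:**
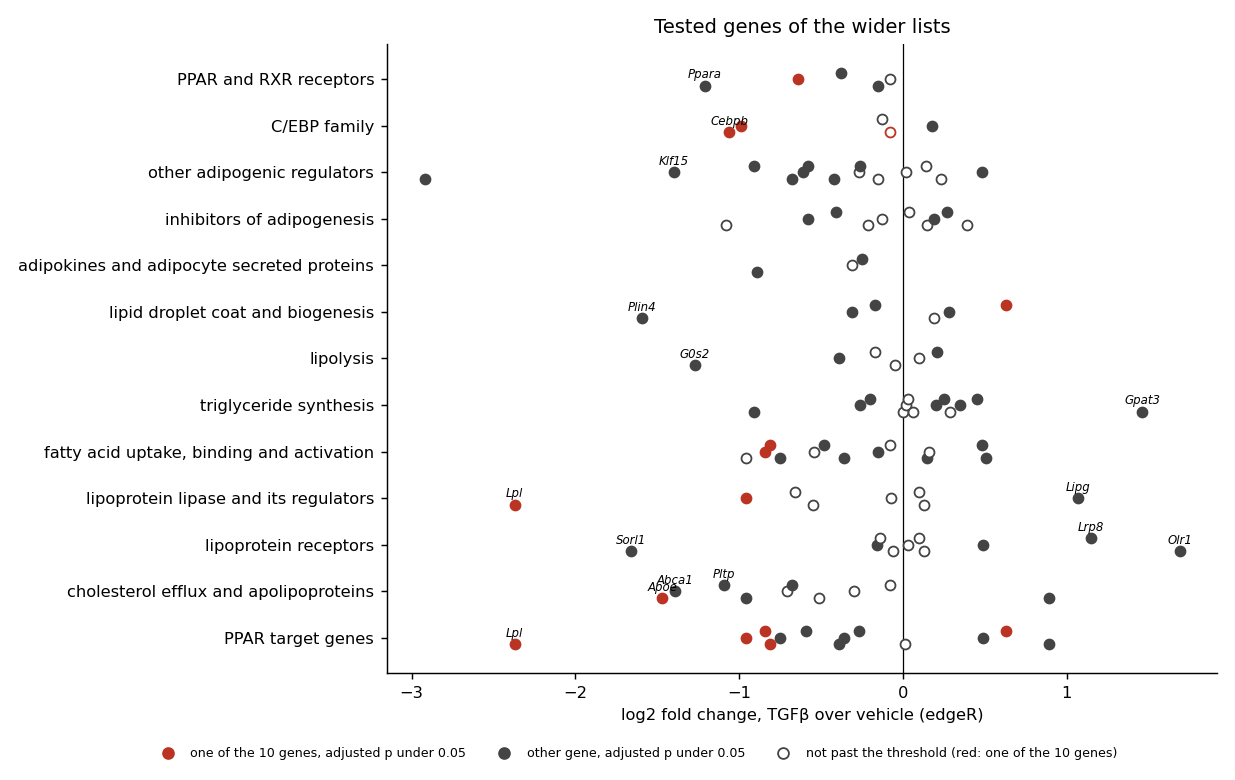
Log2 fold change, TGFβ over vehicle, on the x axis for each tested gene of the 13 lists on the y axis; filled points passed the threshold, red points are among the 10 genes, and the genes with a change of 1 or more in size and a mean of at least 1 CPM are named. The receptor, adipogenic regulator and efflux lists lie mostly to the left of 0, while triglyceride synthesis and the lipoprotein receptors spread to both sides.

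The genes whose course over the 6 libraries was closest to that of *Pparg* were *Hspa12a*, *Mmp11*, *Vsir*, *Pdk4* and *Kctd12b*. The measure was the root mean square distance of log2 CPM, centred on the vehicle mean, over the 10373 genes that averaged 5 CPM or more, and it ran from 0.097 to 0.113. *Pdk4*, which encodes a kinase that shuts off pyruvate dehydrogenase, is itself in the list of PPAR target genes, with a log2 fold change of -0.59 (edgeR adjusted p = 0.002). *Pparg* had 43 to 98 counts a library, so its course includes counting error (coefficient of variation 10.3% with vehicle and 13.4% with TGFβ). The likeness of these genes to *Pparg* is a description only.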

How the data were processed

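RNA was enriched for poly(A) transcripts with a stranded kit and sequenced as single-end reads of 75 bases. The authors aligned them to mm10, and the deposited table gives whole-number counts of reads per gene for 3 vehicle and 3 TGFβ libraries. The aligner, the counting tool, its annotation and its strand setting are not given in the sources used here. The deposited table also holds the authors' DESeq2 comparison: a mean signal normalized by size factors, a log2 fold change, its standard error and test statistic (score columns), and a p-value with its adjusted form. None of these was used.

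TMM scaling, filtering on low counts (filterByExpr) and the quasi-likelihood test, without covariates, were run in edgeR 4.0.16 (R 4.3.3), with Benjamini-Hochberg adjustment over the genes kept. Standard errors are the log2 fold change over the square root of F. Limma 3.58.1 (voom) and DESeq2 1.42.0 were alternatives, as were other scalings and filters, a test against a fold of 1.2, an adjusted p of 0.01 and each library left out. At totals of 27851677 to 31072338 counts, counting error was below the observed spread for the 10 genes except *Pparg* with vehicle, but made up much of a small spread in some (1.77% against 2.26% for *Cebpd* with TGFβ). Gene spans and lengths are from GENCODE M21 (GRCm38). At most 1.6% of the 75-base windows in the longest transcript of any of the 10 genes occurred in a transcript of another gene, read in the same direction. Exons outside the longest transcript were not searched. The edgeR, limma-voom and DESeq2 fits were tested on simulated counts with known fold changes, and the other steps were not.

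The genes and lists were chosen with earlier results of these data known. Genes of the wider lists are named where they were called, changed by 1 or more on the log2 scale and averaged 1 CPM or more (at most 4 a list), or as set partners of the 10 genes. *Gpam*, *Gpat4*, *Abcg1*, *Ddit3*, *Lipa* and *Pnpla2* are named in addition, beside related genes. Replicates are biological by the study's methods, and p-values set the difference between groups against the spread between these libraries. Leaving out both libraries c and a block on column position were added after the data were seen.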

Additional observations from a re-analysis of the deposited data

How the results depend on the processing

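The number of genes called, 5828, was 5358 with both libraries c left out, a setting chosen after the data were seen, and stayed within 1.5 times under the other scalings, tools and filters; it was 2332 in a test against a fold of 1.2 and 3595 at an adjusted p of 0.01, and ran from 4489 to 5481 with each library left out. In the wider lists, 11 genes were called higher (22 in all, the 10 genes included) and 26 lower (45) against a fold of 1.2. *Cebpb*, *Cebpd*, *Lpl*, *Cd36*, *Plin2*, *Apoe* and *Angptl4* kept direction and call in the 15 alternatives at an adjusted p of 0.05, and *Cebpa* was called in none (adjusted p from 0.163 to 1). *Pparg* was no longer called against a fold of 1.2 (log2 fold change -0.64, edgeR adjusted p = 0.0838), at an adjusted p of 0.01 (-0.64), with both libraries c left out (-0.66, edgeR adjusted p = 0.0624), or without vehicle library b or TGFβ library a. Its log2 fold change with a library left out ran from -0.79 to -0.50, or from -0.60 to -0.50 where the call was lost. *Fabp4* was no longer called against a fold of 1.2 (-0.84, edgeR adjusted p = 0.0749) or at 0.01 (-0.84), and ran from -1.12 to -0.60 with a library left out (from -0.76 to -0.60 where the call was lost). Without length scaling the share of *Cebpd* in its family differed by -5.66 and that of *Pparg* by -1.62 percentage points, and by the longest transcript that of *Plin2* by 14.4; the share of *Fabp4* ran from -5.5 to 0.999 with a library left out, with the sign turned at 0.999, without vehicle library c. The causes were not tested. The count columns carry no replicate number, so no pairing is known from the labels. Each library correlated best with that of the same column position, a hint from the data and not from the design, and a replicate block by position, added after the data were seen, called 7497 genes, 8 of the 10 genes lower and 1 higher, with *Cebpa* at an edgeR adjusted p of 0.31. Around lipoprotein lipase it called 4 genes lower and 2 higher, and 4 inhibitors of adipogenesis lower. Depth limits *Pparg*, with 43 to 98 counts a library, and *Ppara*, with 15 to 53.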
